A study of Danio rerio with 6 samples.

Results

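The genes described here are 9 rows of the deposited count tables, chosen by symbol: the interferon effector genes gbp1, isg15, rsad2 and mxa, the class I presentation genes b2m, tap1 and tapbp, and the class II genes cd74a and cd74b. They are 9 of 29095 gene symbols, and all 9 were present. RNA was read from ALL tumours of CG2 zebrafish, where ALL is the leukaemia of lymphocyte precursors (acute lymphoblastic). Flow sorting split each of the tumours 1404, 1279 and 1314 into a side population (SP) and the remaining non-side population (nonSP), with 1 library per fraction and tumour, so n = 3 in each fraction. The SP is by convention the fraction of cells that pumps a DNA-binding dye out, and the nonSP is the fraction that keeps it. No treatment is given in the labels, and all groups share the strain and the tumour type. How the leukaemias were made, whether they arose independently and how many fish each library holds are stated in none of the sources used. P-values therefore concern these 3 pairs. Values are listed below for tumours 1404, 1279 and 1314 in that order.

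Interferons are secreted proteins that bind receptors on the cell surface and act through JAK kinases and STAT and IRF transcription factors. They switch on effector genes that hinder viruses inside the cell, and they also raise genes that cut, carry and display peptides. In class I presentation, the TAP transporter brings peptides into the endoplasmic reticulum, where tapasin helps to load them onto a heavy chain bound to beta-2 microglobulin. In class II presentation, which in lymphocytes is known for B cells, the invariant chain CD74 guards and guides the empty class II molecule.

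Total counts ranged from 45121124 to 55981608 in SP and from 30213658 to 62398607 in nonSP. SP counts were spread over more genes. The 50 most abundant genes held 36.0% to 36.5% of counts in SP and 45.8% to 52.4% in nonSP, and ribosomal protein genes held 31.5% to 35.0% in SP and 46.4% to 50.4% in nonSP. Levels are CPM (counts scaled to library size) after TMM normalization, which corrects the library total for such shifts in composition. These factors ran from 1.206 to 1.757 in SP and from 0.5871 to 0.8169 in nonSP. Over the 15770 tested genes the middle log2 fold change was 1.15 with library totals alone and 0.09 with TMM, a shift of 1.06. Fold changes below are SP over nonSP on the TMM scale, and for the 9 genes the value under library totals is given where its direction differs.

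Of the 9 genes, 8 had enough counts to be tested, and 2 of the 8 passed the test, gbp1 and isg15, both lower in SP. In the same test 22.4% of all tested genes passed in either direction (13.0% higher and 9.40% lower in SP), so the share among the 8 is near that of all genes. Genes were called by the quasi-likelihood test of edgeR, blocked on tumour, where the adjusted p (Benjamini-Hochberg, all tested genes) was below 0.05. No gene of the 8 was called higher by edgeR, DESeq2 or limma voom, which called 13.0%, 12.7% and 14.2% of all tested genes higher. At an unadjusted p below 0.05 in edgeR, 1 of the 8 (tap1) was higher. In that fit 5698 of 15770 tested genes had an unadjusted p below 0.05 in either direction. Without the tumour block edgeR called 0 of 15770 genes, with 1251 at an unadjusted p below 0.05, so the calls concern differences within tumours. With library totals 3 of the 8 were called higher (b2m, tap1 and cd74b) and 0 lower in edgeR, where 50.8% of all tested genes were called higher and 1.76% lower. Under the other 6 settings gbp1 and isg15 were the members called lower, beside 12.6% of all tested genes in DESeq2, 11.7% in limma voom, 10.5% with RLE factors, 10.4% with upper-quartile factors, 9.59% with TMM factors taken without ribosomal and mitochondrial genes, and 5.41% with no filter. A stricter filter left isg15 lower beside 14.8% of all tested genes. Without tumour 1404, 1279 or 1314 there was 1 member lower each time, beside 10.6%, 4% and 4.34% of all tested genes.

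**Figure D1:**
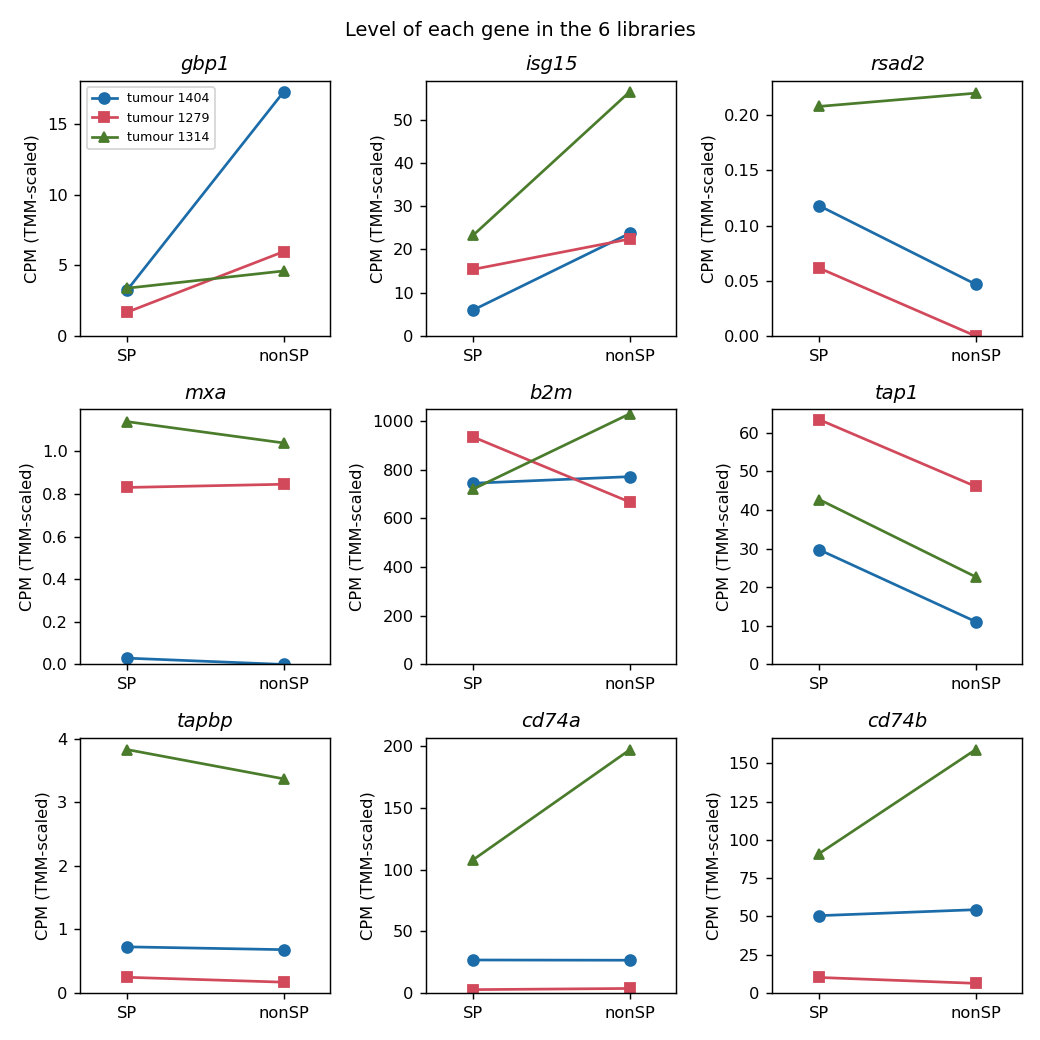
Level of each gene in CPM after TMM scaling (y axes, each from 0) in the SP and nonSP library of each tumour (x axis). Lines join the 2 libraries of a tumour. gbp1 and isg15 are lower in SP in all 3 tumours, and cd74a, cd74b, mxa and tapbp differ more between tumours than between fractions.

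gbp1 encodes a guanylate-binding protein, a GTPase that interferon induces in mammals. It had 3.26, 1.69 and 3.39 CPM in SP, compared with 17.3, 5.98 and 4.61 CPM in nonSP. Every SP library lay below every nonSP library, although the gap in tumour 1314 was small. A lack of overlap was seen for 1 of the 8 tested genes, and for 15.2% of all tested genes (6.61% with SP below nonSP). The mean level of gbp1 was 2.78 ± 0.94 CPM in SP and 9.28 ± 6.94 CPM in nonSP (SD, n = 3 each). gbp1 fell by a log2 fold change of -1.56 ± 0.43 (SE; edgeR adjusted p = 0.0126), or 2.95-fold, with log2 ratios of -2.39, -1.80 and -0.44. The call was lost in edgeR without tumour 1404 (-1.22, adjusted p = 0.0626) and without tumour 1279 (-1.41, adjusted p = 0.0982), and was -2.11 without tumour 1314. With library totals it was -0.485 (edgeR adjusted p = 0.389), and the ratio of tumour 1314 turned to 0.66.

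isg15 encodes a ubiquitin-like protein that is joined to other proteins after interferon exposure. Its level was 6.01, 15.4 and 23.3 CPM in SP, compared with 23.7, 22.4 and 56.4 CPM in nonSP. SP was the lower fraction in each tumour, but the SP library of tumour 1314 reached the level of the nonSP libraries of the other tumours, so the groups overlap. The mean was 14.9 ± 8.67 CPM in SP and 34.2 ± 19.3 CPM in nonSP (SD, n = 3 each). isg15 fell by a log2 fold change of -1.26 ± 0.38 (SE; edgeR adjusted p = 0.0209), or 2.40-fold, with log2 ratios of -1.97, -0.54 and -1.27. Without tumour 1314 it stood at -1.26 with an edgeR adjusted p = 0.0925 and was not called. With library totals it stood at -0.19 (edgeR adjusted p = 0.707), with a ratio of 0.75 in tumour 1279.

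The other 2 effector genes were counted rarely. mxa, which encodes a dynamin-like antiviral GTPase, had 2, 54 and 109 counts in SP, compared with 0, 15 and 47 in nonSP. Tumour 1404 was at or near 0 in both fractions, where no fold can be given, while tumours 1279 and 1314 held the gene in both. On the TMM scale that is 0.83 and 1.14 CPM in SP and 0.85 and 1.04 CPM in nonSP for tumours 1279 and 1314, ratios of 0.98 (95% counting interval 0.55 to 1.87) and 1.1 (0.77 to 1.58). mxa stood at 0.24 ± 0.65 (SE; edgeR adjusted p = 0.830), a wide error that leaves a change of either sign undetected at this depth, and at -0.04 without tumour 1404. rsad2 encodes viperin, a radical SAM enzyme that blocks virus replication. It had 8, 4 and 20 counts in SP, compared with 2, 0 and 10 in nonSP, too few for the filter, and a count of 0 in nonSP of tumour 1279 allows up to 0.0993 CPM of the library total. Its ratio on the TMM scale was 2.52 (95% counting interval 0.50 to 24.4) in tumour 1404 and 0.95 (0.42 to 2.26) in tumour 1314, so no difference was detectable. Intervals cover counting error only.

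**Figure D2:**
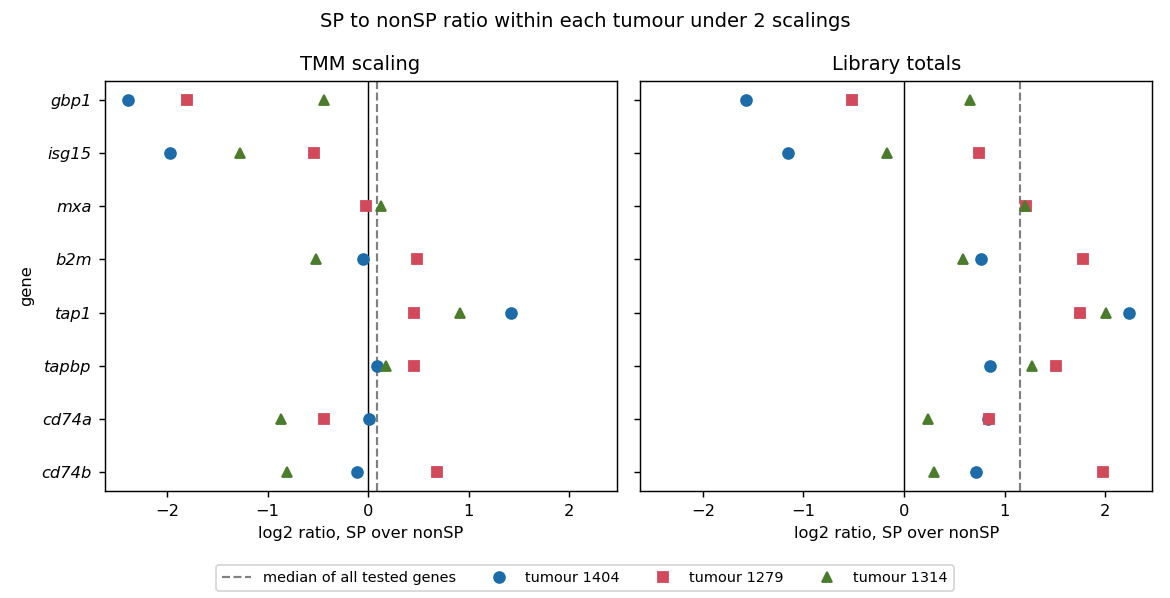
Log2 ratio of SP over nonSP within each tumour (x axis) for 8 genes (y axis), with TMM scaling on the left and library totals on the right. Points are tumours, the dashed line is the median fold change of all tested genes (0.09 and 1.15), and mxa of tumour 1404 and rsad2 are left out for low counts; isg15 of each tumour lies left of the dashed line in both panels, as does gbp1.

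The class I genes did not move as a group. b2m, the light chain of class I molecules, had 745, 935 and 721 CPM in SP, compared with 772, 668 and 1030 CPM in nonSP. SP was higher in tumour 1279 and lower in tumour 1314, and the fractions overlap. Its mean was 800 ± 118 CPM in SP and 824 ± 187 CPM in nonSP (SD, n = 3 each), and its log2 fold change was -0.027 ± 0.30 (SE; edgeR adjusted p = 0.961). It was 1.04 with library totals (edgeR adjusted p = 2.82e-05), which is -0.11 relative to the median gene under either scaling. In its class of level, above an average log2 CPM of 7, 13.6% of 508 genes were called higher and 43.3% lower, with a median of -0.69.

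tap1 encodes a subunit of the peptide transporter. It stood at 29.7, 63.4 and 42.7 CPM in SP, compared with 11.1, 46.1 and 22.7 CPM in nonSP. SP was higher in each of the 3 tumours, while the groups overlap because tumour 1279 was high in both fractions. The mean was 45.3 ± 17.0 CPM in SP and 26.6 ± 17.9 CPM in nonSP (SD, n = 3 each). With a log2 fold change of 0.93 ± 0.37 (SE; unadjusted p = 0.0196, edgeR adjusted p = 0.0725) tap1 missed the threshold, as it did in DESeq2 (0.85, adjusted p = 0.0748) and limma voom (0.84, adjusted p = 0.0673). Without tumour 1404 it stood at 0.57 (edgeR adjusted p = 0.291). Its log2 ratios were 1.42, 0.46 and 0.91 on the TMM scale and 2.24, 1.75 and 2.01 with library totals, where it passed (2.01, edgeR adjusted p = 4.44e-06). Relative to the median of all tested genes tap1 stood 0.845 higher with TMM and 0.853 higher with library totals.

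tapbp, the gene of tapasin, had 0.725, 0.25 and 3.83 CPM in SP, compared with 0.68, 0.17 and 3.37 CPM in nonSP. Both fractions of tumour 1314 were the high libraries, and the fractions of a tumour lay close together. tapbp stood at 0.22 ± 0.50 (SE; edgeR adjusted p = 0.793). In tumour 1279 it rested on 16 counts in SP and 3 in nonSP, a ratio of 1.46 (95% counting interval 0.42 to 7.80). Another row of the tables, TAPBP (1 of 2), also carries the tapasin name and stood at 0.16 ± 0.425 (edgeR adjusted p = 0.829). Reads of near-identical copies may be split between such rows, so single tapasin, gbp and mx genes are uncertain to that extent.

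The invariant chain genes differed between tumours far more than between fractions. cd74a had 26.7, 2.66 and 108 CPM in SP, compared with 26.5, 3.61 and 197 CPM in nonSP. Tumour 1314 was highest and tumour 1279 lowest in both fractions, a span over tumours of 5.32 log2 units in SP and 5.76 in nonSP, while the largest ratio between fractions of a tumour was 0.87 in size. cd74a stood at -0.43 ± 0.38 (SE; edgeR adjusted p = 0.443) and at 0.64 with library totals. cd74b, the paralogue, had 50.5, 10.1 and 91.1 CPM in SP, compared with 54.4, 6.26 and 159 CPM in nonSP. It kept the same order of tumours, spanning 3.17 log2 units in SP and 4.66 in nonSP, and stood at -0.085 ± 0.40 (SE; edgeR adjusted p = 0.903). It was 0.98 with library totals (edgeR adjusted p = 0.0276) and 0.29 without tumour 1314.

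Within a library, cd74a was counted 528, 263 and 1180 times per 1000 counts of cd74b in SP, compared with 486, 577 and 1240 times in nonSP. The proportion of the paralogues was thus close between the fractions of tumours 1404 and 1314 (log2 differences of 0.12 and -0.06) and lower in SP of tumour 1279 (-1.13). Such proportions do not depend on how libraries are scaled. They were computed after the values had been seen, and with 3 pairs an exact two-sided sign-flip test cannot go below p = 0.25, so none was tested.

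Set against b2m in the same way, tap1 and isg15 moved apart. tap1 had 39.9, 67.8 and 59.3 counts per 1000 b2m counts in SP, compared with 14.3, 69.1 and 22.0 in nonSP. The proportion was higher in SP of tumours 1404 and 1314 (log2 differences of 1.48 and 1.43) and nearly equal in tumour 1279 (-0.026). isg15 had 8.07, 16.4 and 32.4 per 1000 in SP, compared with 30.7, 33.5 and 54.7 in nonSP, lower in SP of each tumour (-1.93, -1.03 and -0.76). gbp1 had 4.37, 1.81 and 4.70 per 1000 in SP, compared with 22.3, 8.95 and 4.47 in nonSP, so that tumour 1314 showed almost no difference (0.07) beside -2.35 and -2.31. cd74b had 67.9, 10.8 and 126 per 1000 in SP, compared with 70.5, 9.37 and 154 in nonSP, with log2 differences of -0.05, 0.21 and -0.29. These proportions show unequal change among the genes, not which of them changed.

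**Figure D3:**
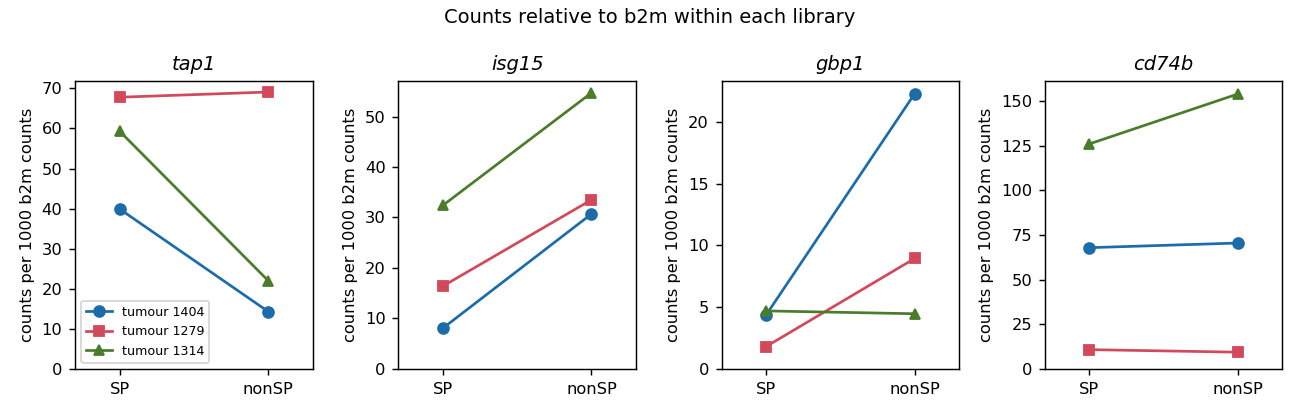
Counts of tap1, isg15, gbp1 and cd74b per 1000 b2m counts of the same library (y axes, each from 0) in SP and nonSP (x axis), joined by tumour. isg15 is lower in SP of all 3 tumours, tap1 is higher in SP of tumours 1404 and 1314, and cd74b is separated by tumour.

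Among themselves the 8 tested genes fell into different patterns over the 6 libraries. Likeness was measured as the root mean square difference of log2 CPM after each gene's mean was removed. The closest pairs were tapbp with cd74b (0.60), cd74a with cd74b (0.77) and tapbp with cd74a (0.83), and the most distant was mxa with cd74a (3.08). In tumour 1404 mxa had 2 counts in SP and 0 in nonSP. Its distances therefore depend in part on the prior count of 2 that is added before the logarithm. gbp1 and isg15 differed by 1.16. Libraries of a tumour share their source, so these distances are descriptions.

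Nearest genes were sought by the same measure over 6 libraries, among 5418 or 5419 candidates with an average log2 CPM of at least 3. Genes with clone, locus or accession-style names were left out of the candidates. Nearest to gbp1 were the cilium gene cep290 (0.25) and fam160b2 (0.25). smc1al, a cohesin gene (0.13), and ndufaf1, an assembly factor of respiratory complex I (0.25), were nearest to isg15. mxa had INTU (0.38) and dennd2da (0.47), and b2m had faub, a ribosomal fusion protein gene (0.10), and the sorting nexin gene snx1a (0.12). tap1 lay nearest to cnot4b, of the CCR4-NOT complex (0.06), and senp2, a SUMO protease gene (0.10), while tapbp had the transcription factor gene tfcp2 (0.46) and the histone chaperone gene nap1l4a (0.47). For cd74a they were plekhh1 (0.44) and hephl1a (0.53), and for cd74b CLNK, an adaptor of immune receptor signalling (0.315), and ada, adenosine deaminase (0.32). The genes nearest to cd74b were low in both fractions of tumour 1279, as ada had 86.8, 15.3 and 132 CPM in SP and 141, 14.3 and 248 CPM in nonSP.

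The wider pathway was described with 6 gene lists, and not every listed symbol had a row. Rows were found for 10 of 16 ligand and receptor symbols, 20 of 22 of signal transduction and 14 of 19 of sensing. They were found for 33 of 44 other effectors, 24 of 40 class I and 18 of 32 class II symbols. Symbols without a row under that name, tap2a and psmb8a among them, are not covered. The lists held 106 distinct tested genes outside the 9. Of these 7 were higher and 11 lower in SP, with a median log2 fold change of 0.008, beside 0.09 for all tested genes. Among all tested genes 22.4% were called, 13.0% higher and 9.40% lower. The edgeR counts of each list below stand beside the same shares. With library totals 54 of the 106 were higher and 0 lower, beside 50.8% and 1.76% of all tested genes. The lists were chosen with earlier results of these data known.

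The tested interferon ligand and receptor genes did not pass in either direction. Of 7 tested, 0 were called in edgeR, DESeq2 or limma voom, and 0 had an unadjusted p below 0.05 in edgeR (median 0.16). In edgeR 22.4% of all tested genes were called, and 5698 of 15770 had an unadjusted p below 0.05. The type I interferon gene ifnphi1 was present at 1.85, 2.57 and 17.0 CPM in SP, compared with 1.64, 2.54 and 14.1 CPM in nonSP. Tumour 1314 was high in both fractions, and ifnphi1 stood at 0.16 ± 0.38 (edgeR adjusted p = 0.806). It lies outside the rule for named genes and was chosen after its values were seen, as were stat1a, stat2 and mhc2dab below. By the rule, ifnphi3 stood at 0.28 ± 0.52, and the receptor chain genes crfb12, crfb6 and crfb1 at 1.25 ± 0.81, 0.43 ± 0.38 and -0.29 ± 0.42.

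Of 18 tested genes of signal transduction and feedback, 1 was higher and 1 lower (median 0.28), beside 13.0% and 9.40% of all tested genes. irf7, a transcription factor that drives interferon genes, reached 198, 215 and 343 CPM in SP, compared with 60.9, 155 and 145 CPM in nonSP. irf7 rose by 1.14 ± 0.38 (SE; edgeR adjusted p = 0.0334), with each SP library above each nonSP library. A lack of overlap in either direction held for 15.2% of all tested genes. Of all tested genes 6.61% had SP below nonSP, and the remainder of the 15.2% had SP above, as irf7 did. The call ended without tumour 1404 (0.75, adjusted p = 0.140), 1279 (1.49, 0.0554) or 1314 (1.09, 0.199), and with RLE factors (1.06, 0.0553). socs3b, a feedback inhibitor of JAK-STAT signalling, fell by 1.17 ± 0.36 (edgeR adjusted p = 0.0222). It was not called without tumour 1279 (0.0786) or 1314 (0.189), or with library totals (-0.0965, edgeR adjusted p = 0.852). irf1b and ptpn2b, a phosphatase gene, stood at 0.89 ± 0.38 and 0.92 ± 0.36 (edgeR adjusted p = 0.0925 and 0.0648). The factors that carry the interferon signal to the nucleus did not pass, with stat1a at 0.05 ± 0.38 and stat2 at 0.43 ± 0.36.

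Nucleic acid sensing held 3 higher and 1 lower gene of 13 tested (median 0.21), beside 13.0% higher and 9.40% lower among all tested genes. traf3, an adaptor between sensors and kinases, had 21.1, 50.9 and 44.5 CPM in SP, compared with 3.07, 33.3 and 11.9 CPM in nonSP. It rose by 1.76 ± 0.42 (SE; edgeR adjusted p = 0.00482) and kept its call without any single tumour, with 1.15 without tumour 1404. tlr9, a receptor for DNA, rose by 1.97 ± 0.60 on 122, 41 and 135 counts in SP, compared with 35, 2 and 10 in nonSP. dhx58 and ifih1 encode RNA sensors of the same helicase family and moved in opposite directions, at 1.19 ± 0.39 and -1.31 ± 0.415 (edgeR adjusted p = 0.0319 and 0.0262). Without tumour 1404 dhx58 was not called (adjusted p = 0.158). Without tumour 1279 the edgeR adjusted p was 0.0703 for tlr9, 0.111 for dhx58 and 0.135 for ifih1, and without tumour 1314 it was 0.180, 0.0946 and 0.103. With library totals ifih1 stood at -0.24 (edgeR adjusted p = 0.700).

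Other interferon effectors were the list with the most falling genes by count, and also the list with the most tested genes. Of 31 tested, 2 were higher and 6 lower, with a median of -0.42. Among all tested genes 13.0% were higher and 9.40% lower, with a median of 0.09. ifit9, of a family that binds viral RNA in mammals, had 2.01, 1.08 and 1.58 CPM in SP, compared with 5.49, 7.33 and 6.06 CPM in nonSP. It fell by 2.04 ± 0.43 (SE; edgeR adjusted p = 0.00198), or 4.10-fold, and kept its call without each tumour (adjusted p from 6.37e-05 to 0.0492). Next to gbp1, the guanylate-binding protein genes gbp3 (-1.54 ± 0.37) and gbp2 (-1.33 ± 0.40) also fell. gbp3 had 4.93, 4.58 and 39.8 CPM in SP, compared with 14.6, 15.7 and 97.8 CPM in nonSP, about the same ratio in each tumour (-1.56, -1.77 and -1.30). A further row named gbp stood at -0.56 ± 0.38 (edgeR adjusted p = 0.288) and at 0.51 with library totals, and gbp4 had 0 to 4 counts per library.

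The mx genes, paralogues of mxa, moved in both directions. mxd had 49.8, 172 and 133 CPM in SP, compared with 94.9, 562 and 339 CPM in nonSP, and fell by 1.33 ± 0.37 (edgeR adjusted p = 0.0122). Its average log2 CPM was 7.82, and in the class above 7, 43.3% of 508 genes were called lower in edgeR. mxf rose by 2.60 ± 0.78 (edgeR adjusted p = 0.0201) on 56, 21 and 35 counts in SP, compared with 5, 1 and 3 in nonSP, and mxc, mxe and mxg did not pass. The remaining called genes were phf11 (-1.51 ± 0.37), ifit15 (-2.21 ± 0.80) and ifit11 (1.53 ± 0.55). ifit15 rested on 5, 7 and 13 counts in SP, compared with 27, 1 and 47 in nonSP. Its log2 ratio in tumour 1279 went the other way (0.638). The count of falling genes was 5 without tumour 1404, 3 without tumour 1279 and 2 without tumour 1314, and that of rising genes 1, 1 and 0. Among all tested genes 10.6%, 4% and 4.34% then fell. Those that rose numbered 1247 of 15887, 1396 of 16672 and 1141 of 16296. In edgeR without tumour 1279, gbp2 (adjusted p = 0.135), gbp3 (0.0623), mxd (0.150) and ifit11 (0.100) were not called. Without tumour 1314 this held for gbp2 (adjusted p = 0.0949), mxd (0.0997), phf11 (0.0645), mxf (0.0685) and ifit11 (0.225) in edgeR, and ifit15 was below the filter. Without tumour 1404 ifit15 (adjusted p = 0.163), mxf (0.127) and ifit11 (0.107) were not called. ifit11 also lost its call in edgeR with RLE (0.0589) and upper-quartile factors (0.0563), and ifit15 in DESeq2 (0.0521). With library totals 7 of the list were higher and 0 lower, beside 50.8% and 1.76% of all tested genes. In that setting ifit9 (-0.97), gbp3 (-0.47), gbp2 (-0.26) and mxd (-0.25) stayed below 0 without passing.

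**Figure D4:**
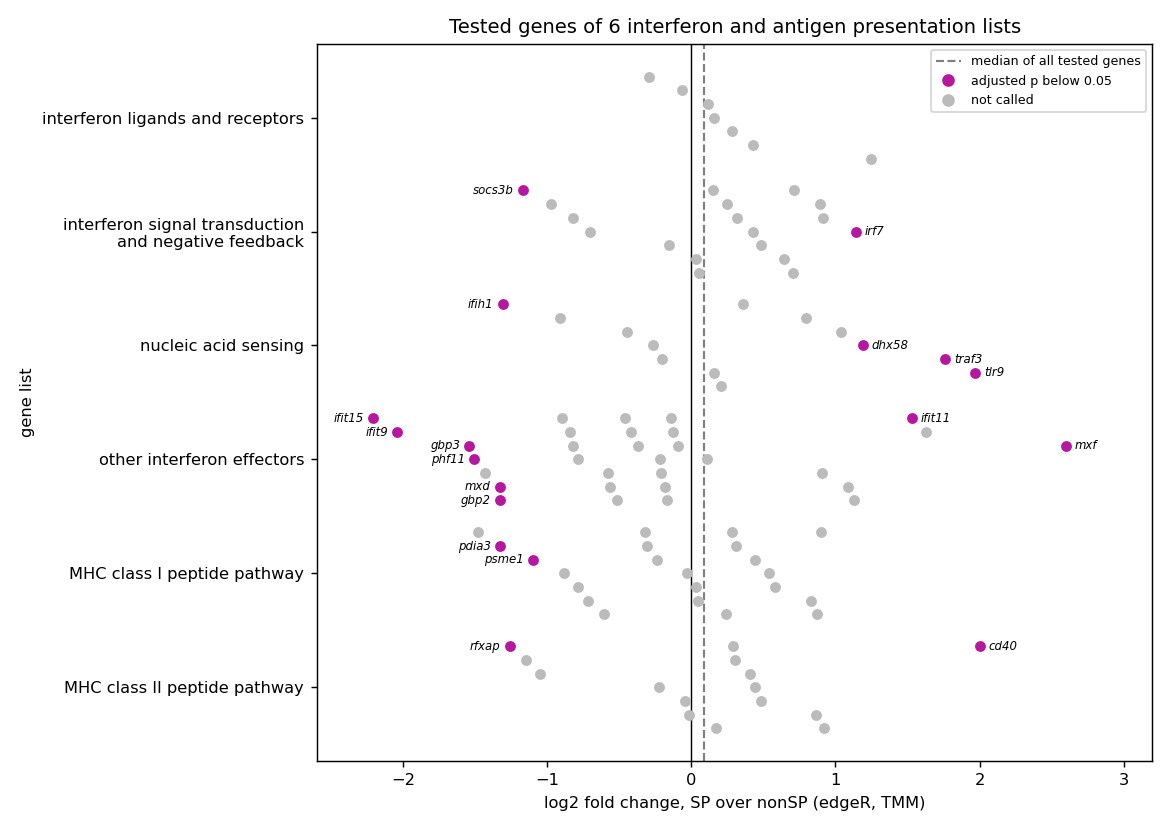
Log2 fold change of SP over nonSP (x axis) for the tested genes of 6 lists (y axis, points spread vertically for legibility only), from edgeR with TMM scaling. Coloured points passed at an adjusted p below 0.05, 2 higher and 6 lower among other interferon effectors, beside 13.0% and 9.40% of all tested genes. The dashed line is the median of all tested genes (0.09).

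Beside b2m, tap1 and tapbp, 22 genes of the class I pathway were tested, of which 0 were higher and 2 lower in edgeR (median 0.0002). In DESeq2 0 were higher and 3 lower, and in limma voom 0 and 2. The shares of all tested genes called higher and lower were 13.0% and 9.40% in edgeR. They were 12.7% and 12.6% in DESeq2, and 14.2% and 11.7% in limma voom. pdia3, a thiol oxidoreductase of the loading complex, had 272, 265 and 312 CPM in SP, compared with 552, 764 and 851 CPM in nonSP. It fell by 1.33 ± 0.32 (SE; edgeR adjusted p = 0.00465), and psme1, a proteasome activator subunit, was lower too at -1.1 ± 0.37 (edgeR adjusted p = 0.0340). pdia3 had an average log2 CPM of 8.97. In the class above 7, 43.3% of 508 genes were called lower in edgeR, with a median log2 fold change of -0.685. The heavy chain gene mhc1zba had 1670, 902 and 318 CPM in SP, compared with 1360, 729 and 517 CPM in nonSP, and did not pass (-0.031 ± 0.30, and 1.04 with library totals). A second beta-2 microglobulin gene, b2ml, had 1230, 474 and 471 CPM in SP, compared with 1540, 516 and 650 CPM in nonSP, at -0.305 ± 0.29 and at 0.77 with library totals. The row psmb10, a proteasome subunit, stood at -1.48 ± 0.60 and the peptide-trimming gene erap2 at -0.88 ± 0.36 (edgeR adjusted p = 0.0768 and 0.0807), and erap2 was called lower in DESeq2 (-0.97, adjusted p = 0.0381) and stood at 0.19 with library totals. In edgeR pdia3 was not called without tumour 1314 (-1.27, adjusted p = 0.0912), and psme1 not without tumour 1279 (0.0940) or 1314 (0.225). With library totals 12 of the list were higher and 0 lower, beside 50.8% and 1.76% of all tested genes, with pdia3 at -0.26 and psme1 at -0.03. mhc1zba and b2ml were chosen after their values were seen.

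Of 15 tested genes of the class II list beside cd74a and cd74b, 1 was higher and 1 lower (median 0.29). In DESeq2, in limma voom and with RLE or upper-quartile factors 2 were lower. Among all tested genes 13.0% were higher and 9.40% lower in edgeR. Those lower made up 12.6% in DESeq2, 11.7% in limma voom, and 10.5% and 10.4% with RLE and upper-quartile factors. The higher gene, cd40, encodes a receptor of antigen-presenting cells and not a part of the class II peptide machinery. cd40 had 70.8, 108 and 179 CPM in SP, compared with 9.32, 55.0 and 42.3 CPM in nonSP. It rose by 2.0 ± 0.43 (SE; edgeR adjusted p = 0.00214), or 3.99-fold, and kept its call without each tumour and with library totals. Each SP library lay above each nonSP library, where 15.2% of all tested genes lacked overlap in either direction (6.61% with SP below, the remainder with SP above). rfxap, a subunit of the factor that binds class II promoters, fell by 1.26 ± 0.37 (edgeR adjusted p = 0.0172). It was not called without tumour 1404 (0.0592), 1279 (0.0573) or 1314 (0.0662), or with library totals (-0.188, edgeR adjusted p = 0.72). rfxank, of the same complex, stood at -1.15 ± 0.43, and ciita, the class II coactivator gene, at -1.05 ± 0.435 (edgeR adjusted p = 0.0555 and 0.0803). rfxank passed in DESeq2 (adjusted p = 0.0197), in limma voom (0.0386) and in edgeR with RLE (0.0424) or upper-quartile factors (0.0483). ciita had 4.13, 2.83 and 12.5 CPM in SP, compared with 12, 10.5 and 10.3 CPM in nonSP, so that tumour 1314 went the other way. Without tumour 1314 ciita was called lower (-1.7, edgeR adjusted p = 0.0148), without tumour 1279 it stood at -0.60, and with library totals at 0.014.

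The class II structural gene mhc2dab followed the order of tumours seen in cd74a and cd74b. It had 22.2, 1.25 and 91.7 CPM in SP, compared with 31.7, 1.18 and 104 CPM in nonSP, with no call (-0.23 ± 0.38, and 0.83 with library totals). Most genes that mark B cells were low in tumour 1279 as well. The summed level of 11 B cell markers was 175, 4.18 and 84.5 CPM in SP and 176, 4.17 and 77.3 CPM in nonSP, and syk, blnk and CD37 had 0 counts in both libraries of tumour 1279. Of 9 tested B cell markers 1 was higher in SP (blnk, 1.31 ± 0.46) and 0 lower, beside 13.0% and 9.40% of all tested genes in edgeR. The call of blnk was lost without any 1 of the tumours, in DESeq2, in limma voom and with RLE factors. cd22 ran against the rest, with 0, 16 and 0 counts in SP and 0, 24 and 0 counts in nonSP. pax5, a B cell transcription factor, had 23.8, 0.031 and 16.8 CPM in SP, compared with 25.5, 0.113 and 32.8 CPM in nonSP. The summed level of 6 T cell markers was 51.1, 449 and 33.8 CPM in SP and 62.6, 448 and 86.7 CPM in nonSP, and lck, a T cell receptor kinase, had 4.23, 237 and 13.3 CPM in SP, compared with 12.8, 286 and 23.2 CPM in nonSP. Not all T cell markers were highest in tumour 1279, as itk had 3.08, 9.25 and 3.38 CPM in SP and 5.56, 9.02 and 24.8 CPM in nonSP, and cd28 was highest in nonSP of tumour 1404 (1.46 CPM). The recombinase gene rag2, which marks immature lymphocytes, was present in every library at 30.9, 69.0 and 27.6 CPM in SP and 69.0, 209 and 83.8 CPM in nonSP. Another immature lymphocyte marker, dntt, had 5.36, 0 and 7.43 CPM in SP and 7.84, 0.056 and 12.6 CPM in nonSP, lowest in tumour 1279. The part of these lineage genes in the levels of cd74a and cd74b was not tested, and in bulk libraries fewer cells of a type and less RNA per cell cannot be told apart.

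**Figure D5:**
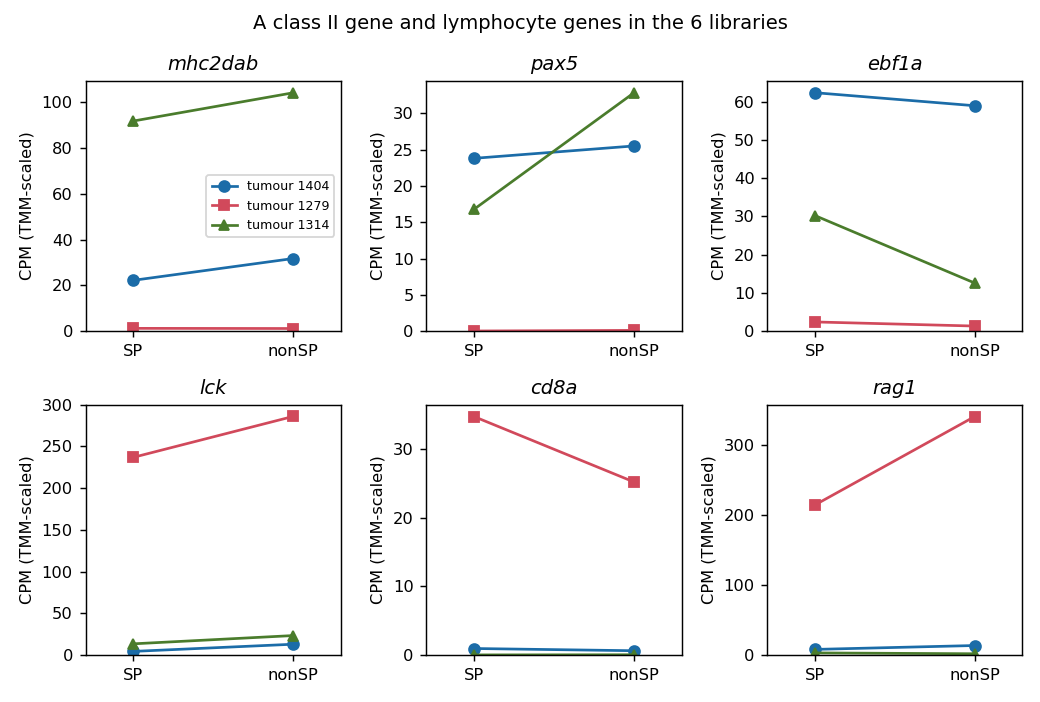
Levels in CPM after TMM scaling (y axes, each from 0) of the class II gene mhc2dab, the B cell genes pax5 and ebf1a, the T cell genes lck and cd8a, and rag1, in SP and nonSP (x axis), joined by tumour. Tumour 1279 is the lowest for mhc2dab, pax5 and ebf1a and the highest for lck, cd8a and rag1 in both fractions. This does not hold for every marker of these lists (cd22, itk, cd28, dntt and tcf3a differ).

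Other cells that present antigen could sit in either gate. Of 15 macrophage and dendritic cell markers present, 7 were tested and 0 called in edgeR. It called 13.0% of all tested genes higher and 9.40% lower, shares that also stand beside the edgeR marker counts below. At an unadjusted p below 0.05 in edgeR 2 of the 7 were lower, beside 5698 of 15770 tested genes in either direction. In DESeq2 1 of the 7 was lower and in limma voom 0, beside 12.6% and 11.7% of all tested genes. The summed level of the 15 markers was 19.5 to 68.7 CPM in SP and 21.7 to 71.2 CPM in nonSP, mostly from CD68. The macrophage marker mpeg1.1 had 7, 2 and 2 counts in SP, compared with 1, 0 and 3 in nonSP, and c1qa had 0 counts in SP and 1, 0 and 0 in nonSP. Of 9 markers listed for neutrophils, the summed level was 676, 30.7 and 48.0 CPM in SP and 303, 44.4 and 80.5 CPM in nonSP. In edgeR mpx was the 1 called gene of 5 tested (3.33 ± 0.47), while mmp9, mmp13a and ncf1 stood above 0 without passing. nccrp1 went the other way at -0.995 ± 0.39 (edgeR adjusted p = 0.0674), lower in SP of each tumour. In DESeq2, in limma voom and with upper-quartile factors 1 of the 5 was called lower, beside 12.6%, 11.7% and 10.4% of all tested genes. lyz and cpa5, too rare to be tested, peaked in nonSP, at 24 counts in tumour 1279 and 11 in tumour 1404. cpa5 stood on this list but is known in zebrafish as a mast cell gene. csf3r, also untested, peaked in SP of tumour 1279 at 18 counts. Of 10 natural killer markers listed, 4 had a row and 1 was tested. These 4 summed to at most 0.70 CPM in SP and 1.3 CPM in nonSP. The listed markers without a row could not be counted, so the sum does not measure natural killer cells as a whole. Erythroid and thrombocyte markers summed to 6.80 to 23.8 CPM in SP and 2.89 to 13.1 CPM in nonSP. Of 4 tested, slc4a1a was called higher (1.60 ± 0.43), but not without tumour 1314 (1.24, edgeR adjusted p = 0.115). alas2 and gp1bb stood at 0.68 ± 0.41 and 0.096 ± 0.605, and thbs1b at -0.31 ± 0.57. The erythroid marker hbaa1 was too rare to be tested and went the other way. It was counted 21 and 9 times in nonSP of tumours 1404 and 1279, but 0 and 3 times in their SP. Endothelial and epithelial markers summed to 0.58 to 23.0 CPM in SP and 0.49 to 10.4 CPM in nonSP. The highest sums were those of tumour 1279, where fli1a alone had 22.7 CPM in SP and 9.58 CPM in nonSP. Immature lymphocyte markers summed to 54.1, 305 and 48.6 CPM in SP and 98.3, 579 and 114 CPM in nonSP. The sum was lower in SP of each tumour on the TMM scale, as gbp1 and isg15 were, and the part of these markers in those results was not tested. Single markers differed, as rag1 had 7.85, 214 and 2.86 CPM in SP and 13.4, 340 and 1.65 CPM in nonSP. ikzf1 stood at 0.017 ± 0.38, and dntt and tcf3a at -0.76 ± 0.48 and -0.59 ± 0.39. The 1 called gene of 5 tested was rag2 (-1.45 ± 0.38), whose call was lost in edgeR without tumour 1279 (adjusted p = 0.0773), without tumour 1314 (0.0878) and with library totals (-0.38, 0.403).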

How the data were processed

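RNA was measured in 6 libraries, SP and nonSP of 3 tumours, grouped by sample title. The authors deposited raw counts per gene symbol. The submitters' processing notes name build GRCz10 and, without roles, edgeR 3.20.7, DESeq 1.30.0, featureCounts 1.28.1, Cufflinks 2.2.1 and STAR 2.5.1b. With no strand setting stated, overlapping and antisense genes cannot be separated.

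The fit used edgeR 4.0.16 under R 4.3.3 (filterByExpr by group, minimum count 10, minimum total 15, TMM, robust glmQLFit, glmQLFTest), with tumour as a block, on all tested genes. The pairing comes from the design text. Deviations from group means correlated at 0.753, 0.839 and 0.818 within tumours 1404, 1279 and 1314. The SE is the log2 fold change over the square root of F and leans on the spread shared by genes (23.2 prior degrees of freedom). Log2 ratios per tumour used a prior count of 2. Ratios given with a counting interval and proportions between genes used none. Each pair of libraries differed by more than sampling noise. Alternatives included DESeq2 1.42.0 and limma 3.58.1. The scripts were tested on simulated data.

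The members and lists were chosen with earlier results of these data known. Named genes were the 9 members, the up to 4 lowest p-values among the tested genes of any list (marker lists in part), and the 2 nearest genes of each tested member. Further called genes of the pathway lists, paralogues of members and defining markers were named after values were seen. List symbols were matched exactly, or by letter case where that gave 1 row (5 symbols). Listed symbols without a matching row are in none of the counts or sums.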

Additional observations from a re-analysis of the deposited data

How the results depend on the processing

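Library totals in place of TMM gave 8015 higher and 277 lower genes, with 3 of the members higher and 0 lower. The stricter filter (10 counts in at least 3 libraries, average log2 CPM of 3) gave 1048 and 904 and left 1 member lower, since gbp1 was not tested in it. Without the replicate block edgeR called 0 higher and 0 lower genes and 0 members lower. Leaving out a tumour gave 1141 to 1396 higher and 667 to 1685 lower genes, and 1 member lower each time. The other 6 settings (DESeq2, limma voom, RLE and upper-quartile factors, TMM without ribosomal and mitochondrial genes, and no filter) kept gbp1 and isg15 lower and the counts of all called genes within 1.5 times.

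Signs turned for b2m with library totals (1.04), no filter (0.045) and without a tumour (-0.27 to 0.22, highest without 1314), for cd74b with library totals (0.98) and without a tumour (-0.44 to 0.29, highest without 1314), for mxa without a tumour (-0.04 to 0.465, lowest without 1404) and for cd74a with library totals (0.64). With library totals crfb1 (0.78), erap2 (0.19) and ciita (0.014) turned too, as did crfb1 without a tumour (-0.85 to 0.13, highest without 1404). The cause of these turns was not tested. The median of all tested genes shifted by 1.06 with library totals. Without tumour 1404, 1279 or 1314 it shifted by -0.104, -0.0892 and 0.0236. With a prior count of 0.5 the nearest genes changed for mxa and tapbp. Depth limits rsad2, whose counting intervals reach 2.26 and 24.4, and tapbp in tumour 1279, and it leaves mxa in tumour 1404 with no ratio.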
